A study of Equus asinus with 6 samples.

Results

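The genes described are the 46 rows of a donkey muscle gene table whose name begins with NDUF, out of 20873 genes in the table, and all 46 passed the filter on low counts. They comprise 37 structural subunits of mitochondrial complex I, 7 assembly factors (NDUFAF1 to NDUFAF7), and NDUFA4 with its paralogue NDUFA4L2. Samples were taken from the longissimus dorsi, which runs along the spine, of 24-month-old Guangling donkeys no more than 30 minutes after slaughter. Muscle with a high intramuscular fat (IMF) content gave 3 libraries and muscle with a low IMF content gave 3. No fat percentage for either group was used here. Whether each library stands for its own animal is not stated, so every p-value rests on a spread between libraries that may be technical.

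Complex I takes electrons from NADH, passes them along iron-sulphur clusters to ubiquinone and pumps protons across the inner mitochondrial membrane, which drives ATP synthesis. The N module binds NADH and the Q module reduces ubiquinone. Together they form the arm that stands in the matrix, while the proximal and distal parts of the membrane arm carry the proton pumps, whose central subunits are encoded by mitochondrial DNA. The NDUF genes are nuclear. Assembly factors help to build the complex and are not part of the finished enzyme. NDUFA4 carries a complex I name but is now placed with complex IV, cytochrome c oxidase. Skeletal muscle, above all its oxidative fibres, is rich in these proteins.

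The high IMF libraries held 39052998 to 47494157 assigned reads and the low IMF libraries 44313770 to 46360965, and a single NDUF gene had between 151 and 40671 reads in a library. For 12 of the genes, NDUFV1, NDUFS1, NDUFS3, NDUFS7 and NDUFA8 among them, a gene table of another donkey assembly has an overlapping neighbour whose reads may be shared. The libraries differed in ways other than their group label. Markers of fast fibres summed to 19064, 64040 and 107107 CPM (read counts scaled to a common library total, with TMM factors) in high IMF replicates 1 to 3, against 64702, 92965 and 86327 CPM in low IMF replicates 1 to 3. Fibroblast markers, with each group's values in the order of replicates 1 to 3 as in every such triplet, summed to 1463, 1252 and 263 CPM in high IMF muscle, against 325, 719 and 775 CPM in low IMF muscle. High IMF replicate 1 had the least fast fibre RNA and high IMF replicate 3 the least fibroblast RNA. Adipocyte markers, too, had their lowest sum in high IMF replicate 3 (350.1 CPM, against 472 to 518 CPM in low IMF muscle). Of these 9 markers taken singly, 7 were lowest in low IMF replicate 1. Low IMF replicates 2 and 3 resembled each other far more than any other pair of 1 group (chi-square per degree of freedom 7.7, against 193 to 560 for the other pairs) but still differed by more than sampling noise, and they were kept as 2 libraries.

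NDUF transcripts were low in high IMF replicates 1 and 2 and high in high IMF replicate 3, so the high IMF group split to either side of the low IMF group. In bulk tissue, fewer muscle fibres and less NDUF RNA per fibre cannot be told apart. The 46 genes summed to 5617, 5471 and 9902 CPM in high IMF replicates 1 to 3, against 8591, 8468 and 8182 CPM in low IMF replicates 1 to 3. The level of a gene in a library, taken as its log2 CPM after subtracting the mean of its 6 values, had a median over the 46 genes of -0.41, -0.42 and 0.38 in high IMF muscle, against 0.19, 0.16 and 0.11 in low IMF muscle. The low IMF libraries thus lay close together, between the extremes set by the high IMF libraries. High IMF replicates 1 and 2 were both below all 3 low IMF libraries for 41 of the 46 genes (15.1% of all 15933 genes tested). High IMF replicate 3 was above all 3 low IMF libraries for 33 of them (31.1% of all genes tested), and the same 33 genes had their highest value of the 6 libraries there (22.3% of all genes).

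**Figure D1:**
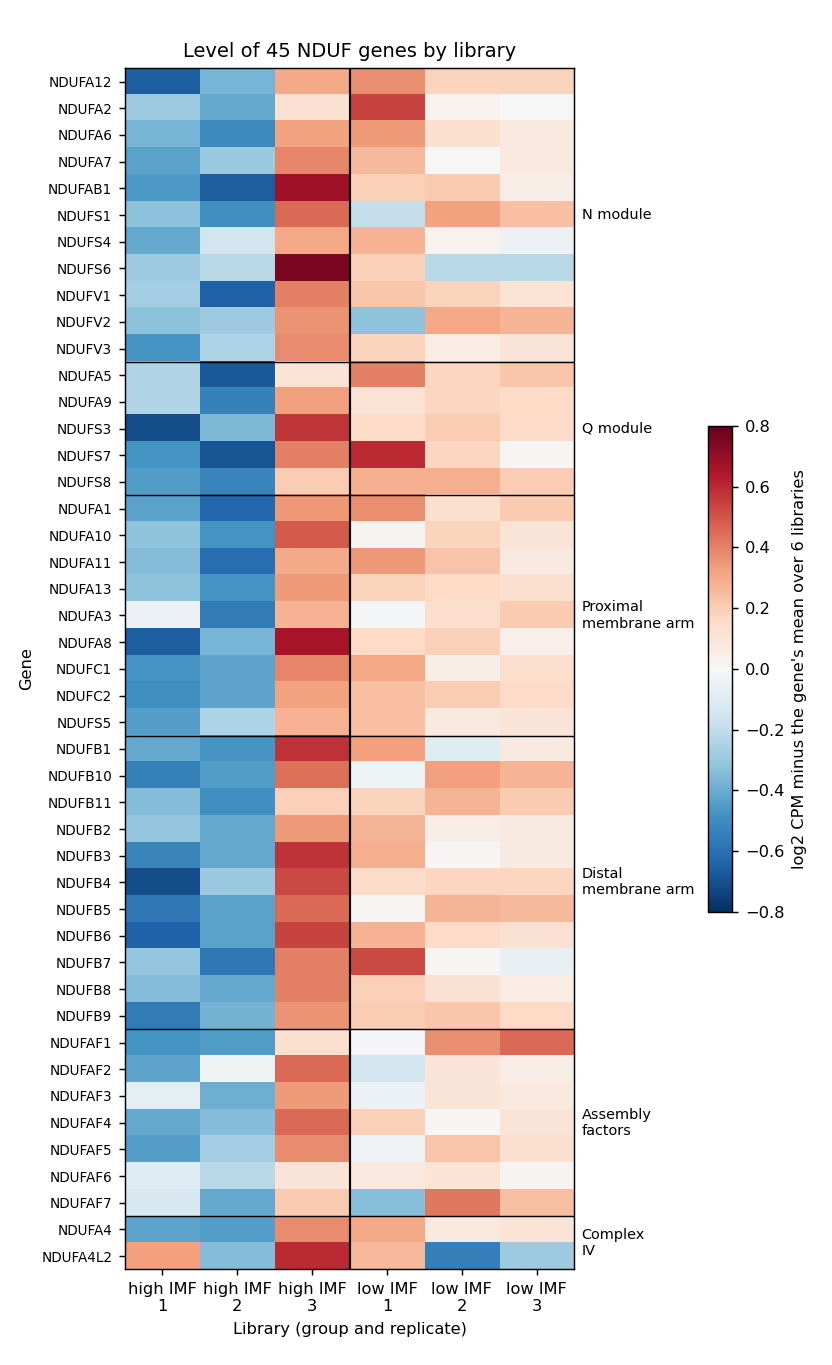
Level of 45 of the 46 NDUF genes (rows, grouped by their place in the complex) in each of the 6 libraries (columns), as log2 CPM after subtracting the mean of its 6 values; red is above and blue below that mean. High IMF replicates 1 and 2 are blue for nearly all genes (medians -0.41 and -0.42), and high IMF replicate 3 is red for all of them (median 0.38), the medians being over all 46 genes.

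The scale on which libraries were compared bears on the place of high IMF replicate 3. NDUF reads made up 0.651%, 0.614% and 0.876% of assigned reads in high IMF replicates 1 to 3, against 0.889%, 0.766% and 0.76% in low IMF replicates 1 to 3, so that without TMM scaling low IMF replicate 1 held the largest share. Scaled by library size only, high IMF replicate 3 was the highest library for 19 of the 46 genes (8.92% of all genes tested) and low IMF replicate 1 for 23 (23.4%). The median levels were then -0.2, -0.25 and 0.21 in high IMF muscle, against 0.24, 0.02 and 0 in low IMF muscle. High IMF replicates 1 and 2 stayed the lowest on either scale.

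Setting high against low IMF muscle asks which transcripts differ between fattier and leaner muscle. For the NDUF genes the fitted log2 fold was negative in 43 of 46 (48.8% of all genes tested), with a median of -0.23 where that over all genes was 0.01. No NDUF gene passed edgeR's quasi-likelihood test with Benjamini-Hochberg adjustment (adjusted p = 0.689 to 0.985), and neither did any other gene (0% of 15933). At an unadjusted p under 0.05, 0 NDUF genes were lower (2.74% of all genes) and 0 were higher (4.53%). The 95% interval of the log2 fold included 0 for all 46 genes, and the intervals together reached from -1.23 to 1.19. The groups failed to overlap for 1 NDUF gene, NDUFA5, which was lower in high IMF muscle (6.10% of all genes), and for 0 in the other direction (6.86%). That count rested on the TMM scaling. Scaled by library size only, NDUFA5, NDUFS8, NDUFB11 and NDUFAF1 were lower without overlap, 4 genes (2.57% of all genes) against 0 in the other direction (10.5%), and with DESeq2 size factors the first 3 of these were (6.50% of all genes) against 0 (6.59%). The DESeq2 Wald test also passed 0 NDUF genes at an adjusted p under 0.05 (1.13% of all genes), with 2 lower at an unadjusted p under 0.05, NDUFAF1 and NDUFA5 (3.43% of all genes). limma-voom passed 0 genes of the table (0%), and of the NDUF genes NDUFAF1 was lower there at an unadjusted p under 0.05 (2.85% of all genes). In the authors' deposited table the adjusted p of the 46 genes was 0.563 to 0.998 (1.15% of the genes with a value there were under 0.05).

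The size of this difference depended on each high IMF library, and most on high IMF replicate 3. Without it the median log2 fold was -0.58, 45 of 46 genes were negative (49.4% of all genes) and 36 were lower at an unadjusted p under 0.05 (5.43% of all genes), while 0 passed after adjustment (0% of all genes; lowest adjusted p of an NDUF gene 0.258). Since that library held the highest value of 33 genes, leaving it out lowers the high IMF mean of those genes by construction. Without high IMF replicate 1 the median was -0.13 and 40 genes were negative (51.9% of all genes), and without high IMF replicate 2 it was -0.12 with 39 negative (50.8%). In either case 0 NDUF genes were lower at an unadjusted p under 0.05 (3.84% and 2.49% of all genes), and 0 passed after adjustment (0.0185% and 0% of all genes). High IMF replicates 1 and 2 held the lowest value of 22 and 23 genes. Leaving either out therefore raises the high IMF mean of those genes by construction.

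**Figure D2:**
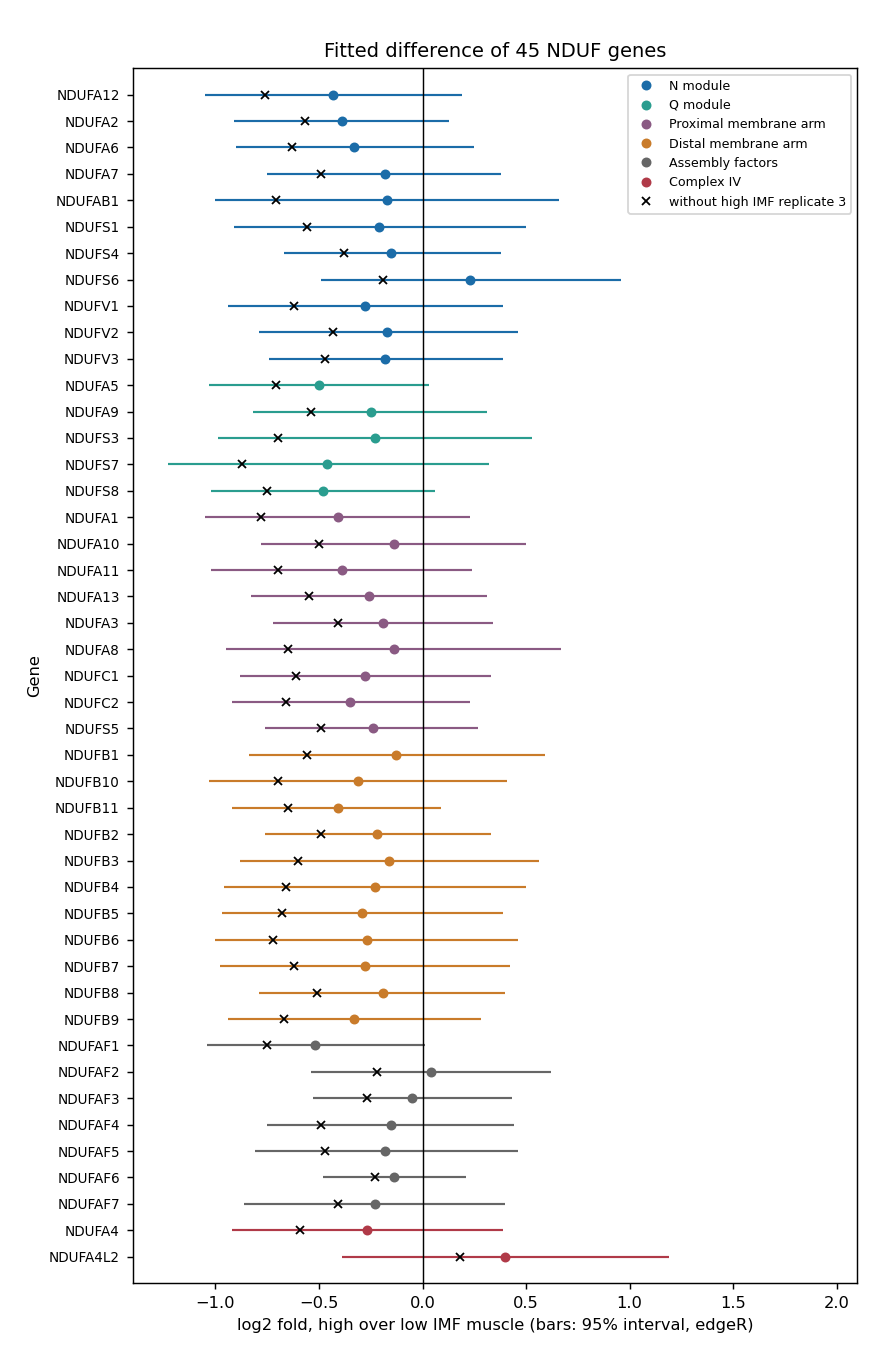
Fitted log2 fold of high over low IMF muscle for 45 of the 46 NDUF genes (points, coloured by place in the complex) with its 95% interval from edgeR (bars), and the same fold without high IMF replicate 3 (crosses). Every bar spans 0, and every cross lies to the left of its point.

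In the N module the log2 fold was negative for 10 of 11 genes (median -0.18), and 0 passed the test. NDUFV1, which binds NADH and the flavin that first takes its electrons, measured 306, 236 and 488 CPM in high IMF replicates 1 to 3, against 429, 419 and 399 CPM in low IMF replicates 1 to 3. Under TMM scaling its high IMF values lay on both sides of the low IMF values. Scaled by library size only, its high IMF replicate 3 lay below low IMF replicate 1. The log2 fold of NDUFV1 was -0.28 ± 0.28 (SE, n = 3 and 3 libraries, as for every fold here, edgeR adjusted p = 0.919). NDUFS1, which carries iron-sulphur clusters, measured 295, 265 and 507 CPM in high IMF muscle, against 326, 465 and 439.6 CPM in low IMF muscle. NDUFV2, another iron-sulphur subunit, measured 117, 120.1 and 189 CPM in high IMF muscle, against 118, 183 and 177 CPM in low IMF muscle. For these 2 genes low IMF replicate 1 lay well below the other low IMF libraries and near high IMF replicates 1 and 2.

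NDUFA2, an accessory subunit of the N module, differed from that pattern in the opposite direction. It measured 64.2, 59.1 and 85.5 CPM in high IMF muscle, against 114, 80.4 and 78.7 CPM in low IMF muscle, with the highest value in low IMF replicate 1 (log2 fold -0.39 ± 0.22, edgeR adjusted p = 0.813). NDUFA12, an accessory subunit added late in assembly, had the lowest fold of the module at -0.43 ± 0.26. NDUFS6, a zinc-binding subunit, was the single structural gene with a positive log2 fold. It measured 91.1, 95.6 and 187 CPM in high IMF muscle, against 127, 95.8 and 95.5 CPM in low IMF muscle, so that the positive value of 0.23 ± 0.31 (adjusted p = 0.936) came with high IMF replicate 3 and became -0.19 without it.

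In the Q module the log2 fold was negative for all 6 genes (median -0.35), and 0 passed. NDUFA5, an accessory subunit of the matrix arm, measured 118, 87.6 and 150.3 CPM in high IMF muscle, against 184, 157 and 163 CPM in low IMF muscle. Its groups did not overlap, though high IMF replicate 3 lay close below low IMF replicate 2, and the log2 fold was -0.5 ± 0.23 (edgeR p of 0.0613 unadjusted, adjusted p = 0.719). Under TMM scaling the groups of the other 5 genes overlapped. NDUFS8, an iron-sulphur subunit, measured 129, 122 and 203 CPM in high IMF muscle, against 216, 216 and 203 CPM in low IMF muscle (log2 fold -0.48 ± 0.23, adjusted p = 0.74). NDUFS7, which holds the last iron-sulphur cluster before ubiquinone, measured 251, 218 and 463 CPM in high IMF muscle, against 530.0, 394 and 354 CPM in low IMF muscle (log2 fold -0.46 ± 0.33, adjusted p = 0.867). Both had 2 high IMF libraries far below the low IMF range and the remaining library, replicate 3, inside or at the edge of it.

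NDUFS3, another core subunit of the module, measured 96.7, 123 and 235 CPM in high IMF muscle, against 176, 182 and 176 CPM in low IMF muscle. High IMF replicate 3 was its highest library and high IMF replicates 1 and 2 its lowest (log2 fold -0.23 ± 0.33, adjusted p = 0.938). NDUFA9, an accessory subunit at the foot of the matrix arm, had a log2 fold of -0.25.

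The nuclear subunits of the membrane arm behaved alike in direction. All 9 genes of its proximal part had a negative log2 fold (median -0.26, lowest NDUFA1 at -0.41), as did all 11 of its distal part (median -0.27, lowest NDUFB11 at -0.41), and 0 of the 20 passed the test. NDUFB11 measured 129, 117 and 187 CPM in high IMF muscle, against 187, 199 and 189.9 CPM in low IMF muscle (log2 fold -0.41 ± 0.22, adjusted p = 0.764). NDUFB10, of the distal part, measured 313, 335 and 618 CPM in high IMF muscle, against 443, 576 and 551 CPM in low IMF muscle (log2 fold -0.31 ± 0.31). In NDUFB11 high IMF replicate 3 sat level with the low IMF libraries, and in NDUFB10 it exceeded them. NDUFA8, of the proximal part, measured 155, 189 and 387 CPM in high IMF muscle, on both sides of its 274, 279 and 252 CPM in low IMF muscle.

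Of the 7 assembly factors, 6 were negative on the log2 fold scale (median -0.15) and 0 passed. NDUFAF1, which works with ACAD9, ECSIT and TMEM126B in building the membrane arm, had the smallest p of the 46 genes. It measured 35.5, 36.3 and 54.4 CPM in high IMF muscle, against 49.2, 64 and 67.6 CPM in low IMF muscle, with high IMF replicate 3 above low IMF replicate 1 (log2 fold -0.52 ± 0.22, edgeR p of 0.0523 unadjusted, adjusted p = 0.689). Leaving out each library in turn gave log2 folds from -0.75 to -0.43. NDUFAF2, a paralogue of NDUFA12 that holds its place during assembly, measured 9.56, 12.5 and 17.5 CPM in high IMF muscle, against 11.5, 13.6 and 13.2 CPM in low IMF muscle, and its log2 fold of 0.04 ± 0.25 had no settled sign. NDUFAF7, which in human cells methylates a complex I subunit, measured 8.92, 7.33 and 11.3 CPM in high IMF muscle, against 7.71, 13.1 and 11.5 CPM in low IMF muscle. NDUFAF3 (-0.05), NDUFAF4 (-0.15), NDUFAF5 (-0.18) and NDUFAF6 (-0.14) lay nearer 0 on the log2 fold scale.

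NDUFA4 and NDUFA4L2 parted. NDUFA4 measured 515, 508 and 892 CPM in high IMF muscle, against 847, 724 and 734 CPM in low IMF muscle (log2 fold -0.27 ± 0.28, edgeR adjusted p = 0.919). Under TMM scaling its high IMF replicates 1 and 2 were lowest and its replicate 3 highest, as in most complex I subunits. Scaled by library size only, low IMF replicate 1 was the highest library for NDUFA4. NDUFA4L2, known as a hypoxia-induced paralogue, measured 6.78, 4.2 and 8.19 CPM in high IMF muscle, against 6.46, 3.66 and 4.4 CPM in low IMF muscle, with a positive log2 fold of 0.4 ± 0.34 (adjusted p = 0.887) and overlapping groups. High IMF replicate 1, low for most NDUF genes, was among its higher libraries.

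A search of the table's annotation found 2 further rows under LOC numbers that the name rule does not reach. LOC106845759, given as the assembly factor NDUFAF8 by the RefSeq gene table, measured 43.8, 40.9 and 63.4 CPM in high IMF muscle, against 62.8, 58.2 and 56.3 CPM in low IMF muscle (log2 fold -0.26 ± 0.2, adjusted p = 0.876). LOC106834987, given there as C2H15orf48 and in the table as the normal mucosa of esophagus-specific protein with NDUFA4 as its nearest curated protein, had 29, 39 and 20 reads in high IMF muscle, against 10, 6 and 2 reads in low IMF muscle. In human and mouse cells the product of this gene can take the place of NDUFA4 in complex IV during inflammation. Its log2 fold was 2.24 ± 0.61 without overlap between the groups (edgeR p of 0.00752 unadjusted, adjusted p = 0.523). Macrophage markers summed to 222, 87.1 and 33.5 CPM in high IMF muscle, against 48.2, 43.9 and 46.5 CPM in low IMF muscle, with high IMF replicate 3 below the low IMF libraries. Lymphocyte markers (7 genes) summed to 21.2, 15.3 and 13.5 CPM in high IMF muscle, against 14.8, 4.8 and 4.4 CPM in low IMF muscle. Of the 7, 4 were higher in high IMF muscle without overlap under TMM scaling (6.86% of all genes tested). The 7 genes were weakly expressed, with mean FPKM from 0.162 to 1.69. The part of either cell type in the difference of C2H15orf48 was not tested.

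Compared per gene length, the NDUF genes covered a range of levels far wider than the differences between the groups. The deposited FPKM values, reads scaled to gene length and library total, averaged 1301 over the 6 libraries for NDUFA4, 642 for NDUFB10 and 442 for NDUFS7, the 3 highest. NDUFA4 measured 1117, 1069 and 1472 FPKM in high IMF muscle, against 1645, 1227 and 1276 FPKM in low IMF muscle. Among the 37 structural subunits the mean FPKM ran from 48.6 (NDUFA9) to 642 (NDUFB10), a 13.2-fold range, with a median of 188. The assembly factors lay below all of them, from 2.98 (NDUFAF2, the lowest of the 46) to 37.2 (NDUFAF3), with a median of 6.76. NDUFAF2 measured 2.57, 3.25 and 3.58 FPKM in high IMF muscle, against 2.76, 2.86 and 2.84 FPKM in low IMF muscle. These ranks rest on the gene lengths behind the FPKM, which for NDUFAF2 implied 4315 bases. By mean CPM, NDUFAF2 (13.2 in high and 12.8 in low IMF muscle) lay above NDUFAF5 (6.17 and 6.97).

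**Figure D3:**
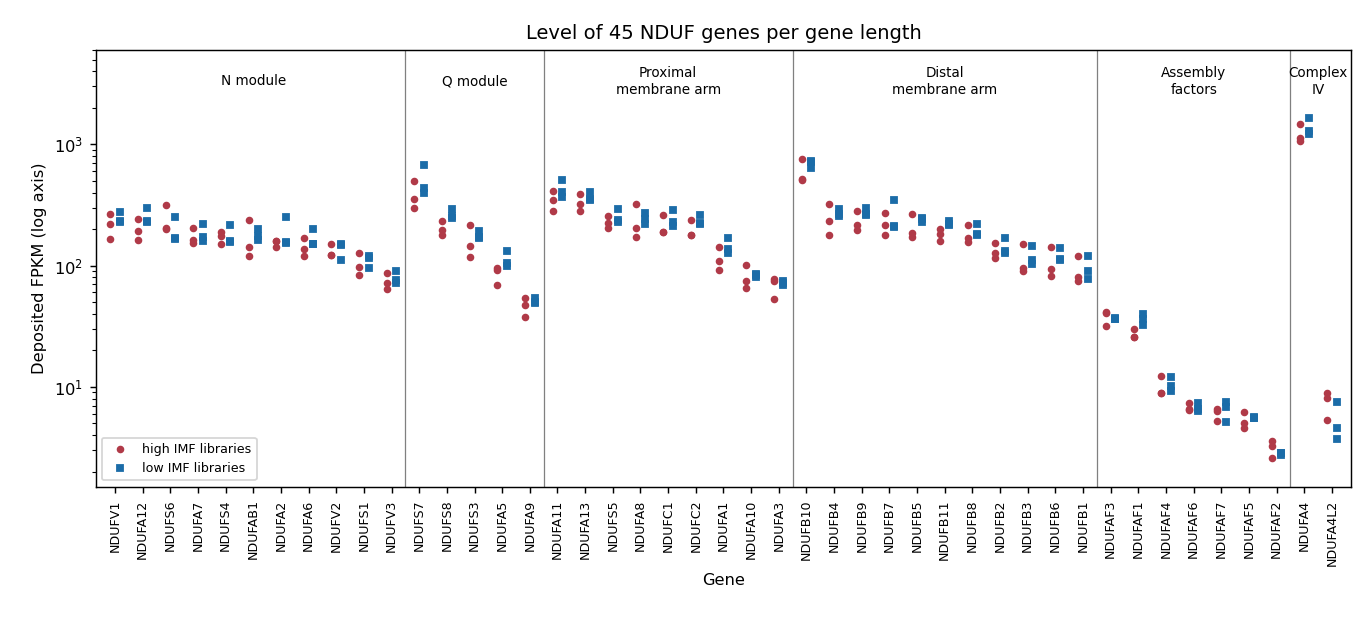
Deposited FPKM (log axis) of 45 of the 46 NDUF genes in the 3 high IMF libraries (red circles) and the 3 low IMF libraries (blue squares), sorted by mean FPKM within each place in the complex. Structural subunits span 48.6 to 642 FPKM on average, assembly factors 2.98 to 37.2, and the groups overlap for most genes.

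Most structural subunits kept near the median NDUF level of each library, with exceptions in low IMF replicate 1. After the median NDUF level of each library was subtracted, the SD of what remained over the 6 libraries was under 0.25 on the log2 scale for 42 of 46 genes and for 35 of the 37 structural subunits. It was smallest for NDUFB8 (0.04) and largest for NDUFA4L2 (0.5), NDUFAF7 (0.31), NDUFS6 (0.3) and NDUFV2 (0.26). The remainders of NDUFV2 and NDUFAF7 in low IMF replicate 1 were -0.51 and -0.53, and those of NDUFS7 and NDUFA2 there were 0.4 and 0.35. The median subtracted was taken from these same genes, which makes the remainders smaller, and no other gene set was treated in this way.

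Low IMF replicate 1 also differed from low IMF replicates 2 and 3 by gene length, though not for every gene. The length was taken as that implied by count and FPKM. For the 35 NDUF genes under 1500 bases the median log2 ratio of low IMF replicate 1 to the mean of low IMF replicates 2 and 3 was 0.15, with 26 of them higher in low IMF replicate 1, and for the 11 longer ones it was -0.12, with 4 higher. NDUFV2, with an implied length of 1104 bases, went against this, being low in that library though short. Over all genes of at least 1 CPM the medians were 0.08 (2033 genes under 1500 bases) and -0.02 (11537 longer genes). The levels of all genes under 1500 bases were -0.17, -0.08 and 0.15 in high IMF muscle, against 0.11, 0.05 and 0.01 in low IMF muscle, the same signs as those of the NDUF genes at a smaller size. Those of all longer genes were 0.04, 0 and 0 in high IMF muscle, against -0.01, 0.01 and 0.01 in low IMF muscle. Over all genes, high IMF replicates 1 and 3 thus differed between the length classes by more than low IMF replicate 1 did. In NDUF genes of 1500 bases or more the 3 high IMF libraries stood at -0.33, -0.41 and 0.4, close to those of the shorter ones (-0.43, -0.42 and 0.38). The part of gene length in the NDUF values was not tested.

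In the lists for the rest of the respiratory chain, too, the median level under TMM scaling was lowest in high IMF replicates 1 and 2 and highest in high IMF replicate 3. The levels of these lists were not taken by library size only, a scale on which the place of high IMF replicate 3 changed for the NDUF genes. Complex I assembly factors of other names were negative in 11 of 13 tested genes (median log2 fold -0.23), and 0 passed. ACAD9, a partner of NDUFAF1, measured 42.2, 35.6 and 49.1 CPM in high IMF muscle, against 40.8, 54.2 and 55.9 CPM in low IMF muscle. TMEM186, another such partner, had a log2 fold of -0.25 ± 0.18, and OXA1L, which inserts proteins into the inner membrane, one of -0.31 ± 0.22. Complexes II, III, IV and V had 4 of 4, 9 of 9, 9 of 9 and 12 of 12 genes with a negative fold, with medians of -0.12, -0.29, -0.3 and -0.22, and 0 passed. The median level of complex III was -0.45, -0.53 and 0.43 in high IMF muscle, against 0.21, 0.19 and 0.15 in low IMF muscle. A list of 8 mitochondrial genes outside the chain (import, matrix chaperones, citrate synthase, outer membrane channels and the prohibitin PHB2) had a median fold of -0.11. Its levels were -0.27, -0.22 and 0.31 in high IMF muscle, against 0.1, 0.07 and 0.06 in low IMF muscle.

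Of the listed regulators of mitochondrial genes, 6 of 7 were highest in high IMF replicate 3 under TMM scaling (22.3% of all genes), and 0 passed the test. PPARGC1A, the coactivator that promotes mitochondrial biogenesis, measured 19.4, 19.2 and 44 CPM in high IMF muscle, against 42.5, 29.3 and 27.4 CPM in low IMF muscle. On this TMM scale its high IMF replicates 1 and 2 were the lowest and replicate 3 the highest of the 6, as for most NDUF genes (log2 fold -0.27 ± 0.36, adjusted p = 0.937). Scaled by library size only, low IMF replicate 1 was its highest library. NRF1, a transcription factor for respiratory chain genes, measured 10.6, 10.6 and 9.56 CPM in high IMF muscle, against 12.6, 12.7 and 13.8 CPM in low IMF muscle. Under TMM scaling its groups did not overlap (6.10% of all genes were lower without overlap), but scaled by library size only they did. NRF1 did not pass (log2 fold -0.35 ± 0.16, edgeR p of 0.0692 unadjusted, adjusted p = 0.734), and unlike the NDUF genes it was lowest in high IMF replicate 3. GABPA, a further such factor, had a log2 fold of 0.18 ± 0.2.

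Markers of the cell types in the tissue also moved between these libraries. The median level of 9 fast fibre markers was -1.88, 0.11 and 0.79 in high IMF muscle, against 0.04, 0.55 and 0.44 in low IMF muscle, and that of 8 slow fibre markers 0.72, -0.53 and -0.38 in high IMF muscle, against 0.44, -0.17 and -0.12 in low IMF muscle. High IMF replicates 1 and 2 thus had nearly the same NDUF level beside unlike fibre marker levels. Fibroblast markers (8 genes) stood at 1.09, 0.98 and -1.45 in high IMF muscle, against -0.99, 0.04 and 0.2 in low IMF muscle, adipocyte markers (9 genes) 0.91, 2.81 and -0.79 in high IMF muscle, against -2.66, 0.11 and 0.03 in low IMF muscle, and macrophage markers (8 genes) 1.91, 0.46 and -0.87 in high IMF muscle, against -0.45, -0.41 and -0.4 in low IMF muscle. The libraries with the lowest NDUF levels, high IMF replicates 1 and 2, were those with the highest levels of all 3 of these lists. Endothelial markers were lowest in high IMF replicate 3 (levels of 0.07, -0.08 and -0.8 in high IMF muscle, against 0.4, 0.24 and 0.22 in low IMF muscle). Lymphocyte markers stood at 1.34, 0.7 and 0.52 in high IMF muscle, against 0.43, -1.03 and -1.66 in low IMF muscle, and smooth muscle markers (5 genes) at -0.55, 0.01 and -0.56 in high IMF muscle, against -0.39, 0.9 and 0.61 in low IMF muscle. Adipocyte markers summed to 529, 838 and 350.1 CPM in high IMF muscle, against 489, 518 and 472 CPM in low IMF muscle. By this sum high IMF replicate 3 was below every low IMF library, while by median level it was above low IMF replicate 1 only. Among these lists a marker was at 0 reads for PVALB, in 2 libraries, and for LEP, in 1. The part of these cell types in the NDUF values was not tested.

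**Figure D4:**
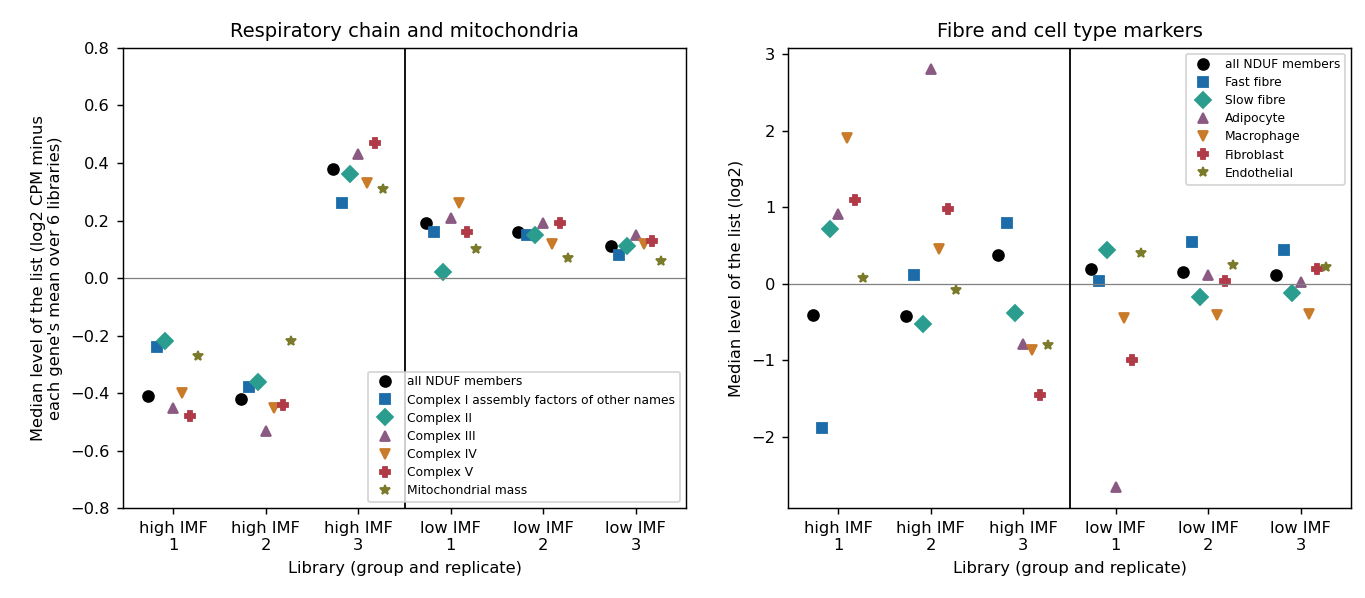
Median level of gene lists (log2 CPM, centred on each gene's mean) in each library, for the respiratory chain and mitochondria (left) and for fibre and cell type markers (right, wider scale), with the 46 NDUF genes in black in both panels. Under TMM scaling the respiratory chain lists follow the NDUF genes, lowest in high IMF replicates 1 and 2 and highest in high IMF replicate 3, where the fibroblast markers are lowest (-1.45).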

How the data were processed

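The authors deposited 1 whole-number read count per gene and library. The submitters' processing notes name HISAT2 and the build mm9, a mouse build, although the deposited table annotates donkey genes. The counting tool, the annotation and the handling of strand are nowhere named, so no coordinates are printed. In a RefSeq gene table of another donkey assembly (EquAss-T2T_v2, used for names and neighbours) 12 of the 46 genes overlap another gene, among them NDUFV1, NDUFS1, NDUFS3, NDUFS7, NDUFA3, NDUFA8, NDUFB8, NDUFB9, NDUFAF3, NDUFAF5 and NDUFAF7. The deposited FPKM values, the authors' normalization to gene length and total reads, were used to compare levels between genes and entered no test. The authors' deposited ratio (fold change), its log2 value and the p-values were used only where that table is named. Rows without a gene name (726, with 0.704% of reads) stayed in the library sizes and tests.

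Counts were tested with edgeR 4.0.16 (R 4.3.3; quasi-likelihood F-test, TMM scaling, filterByExpr with its default settings, 15933 genes holding 99.96% of reads), fitted over the whole table with group as the only term and Benjamini-Hochberg adjustment at 0.05. The SE of a fold is its size divided by the square root of F, and 95% intervals follow from the test's degrees of freedom. Levels use log2 CPM with a prior count of 2. The tests were tried on simulated counts. Samples were grouped by title. Alternatives were other scalings and filters, DESeq2 1.42.0, limma-voom 3.58.1, a replicate block, each library left out, low IMF replicates 2 and 3 summed, and other member sets. The members, lists and tests were chosen with earlier results of these data known. Genes are named by rule: members by smallest p, level, core role and separate groups, and up to 3 genes of smallest p in each list. NDUFS6, NDUFA8, NDUFAF7, and the members named for the size of what remained after subtracting the common level, were chosen after their values were seen, as was the count of separate groups under other scalings. The values of 1 member are not reported singly here; it stays in all counts and medians. The IDs of 2 rows were matched to symbols by their gene number.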

Additional observations from a re-analysis of the deposited data

How the results depend on the processing

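No NDUF gene passed an adjusted p of 0.05 under any of the alternatives. The number of NDUF genes at an unadjusted p under 0.05 was 0 in the main analysis. It was 1 with DESeq2 size factors, with library size only, with no low-count filter and with limma-voom (each time NDUFAF1, beside 6.68% to 7.53% of all genes in either direction). It was 2 with the DESeq2 Wald test and 2 with the replicate number as a block (NDUFAF1 and NDUFA5 in both, beside 8.92% and 7.45% of all genes). With 1 library left out it was 0 to 36, the 36 without high IMF replicate 3 (12.5% of all genes). Adding the 2 rows under LOC numbers gave 1 such row, C2H15orf48 (7.27% of all genes). That row is not named NDUF, had 2 to 39 reads in a library and was higher in high IMF muscle, while NDUFAF1 and NDUFA5 were lower. Genes called over the whole table were 180 in the DESeq2 Wald test and 0 in limma-voom, where 1111 reached an unadjusted p under 0.05 (1158 in edgeR), and 0 to 3 in edgeR with 1 library left out, the 3 without high IMF replicate 1. The NDUF median log2 fold of -0.23 ran from -0.58 to -0.12 with 1 library left out and was -0.14 under library size scaling, where the median over all genes was 0.15 in place of 0.01.

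Same-numbered libraries of the groups had deviations that correlated at 0.2, 0.15 and 0.02, so the numbers were not taken as pairs; with the replicate block, 0 genes were called and the NDUF median was -0.3. The sign of NDUFAF3 turned to 0.06 with library size only and that of NDUFAF2 to -0.01 in limma-voom. With 1 library left out, the log2 fold ran from -0.65 to 0.08 for NDUFA8, -0.56 to 0.04 for NDUFB1, -0.6 to 0.02 for NDUFB3, -0.71 to 0.05 for NDUFAB1, -0.5 to 0.02 for NDUFA10, -0.27 to 0.09 for NDUFAF3, -0.19 to 0.4 for NDUFS6 and -0.22 to 0.21 for NDUFAF2. The cause of these turns was not tested. The lowest count behind an NDUF value was 151 reads.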
